A study of Mus musculus with 4 samples.

Results

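The genes described here are 9 members of the TNF superfamily: the ligands Tnf, Lta, Ltb, Fasl and Tnfsf10, and the receptors Fas, Tnfrsf1a, Tnfrsf1b and Tnfrsf10b. They were chosen by gene symbol, and all 9 were found among the 27998 features of the count matrices. The cells came from orthotopic breast tumours of the MT4788 line grown in FVB mice of wild-type genotype and collected at day 4. Cell suspensions were enriched for CD45+ leukocytes on magnetic columns (over 90% CD31-EpCam-CD45+, per the labels), 10000 cells per treatment were loaded, and 10x Genomics 3′ libraries were made. The study asked how complex I inhibition combined with Toll-like receptor activation acts on the leukocytes of such tumours. There was 1 library per treatment: the control library (Saline and PBS), the phenformin library (Saline and Phenformin), the poly I:C library (Poly I:C and PBS) and the combination library (Poly I:C and Phenformin). Phenformin is a biguanide that inhibits mitochondrial complex I, and poly I:C is an artificial RNA duplex that activates Toll-like receptor 3. All mice carried the same tumour line, and the controls received both vehicles. The labels do not say how many tumours each library holds, so no value below has a replicate, and no test between treatments was run.

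Most TNF superfamily ligands are trimeric type II membrane proteins that are shed or act between touching cells. Fas, Tnfrsf1a (TNFR1) and Tnfrsf10b (the receptor of TRAIL that carries a death domain in mouse) recruit adaptors such as FADD or TRADD and can start caspase-8-dependent apoptosis, whereas Tnfrsf1b (TNFR2) lacks a death domain and signals through TRAF proteins to NF-κB. Fas ligand and TRAIL are effector molecules of cytotoxic T cells and NK cells, TNF is made mainly by activated myeloid cells and T cells, and lymphotoxin α and β form membrane heterotrimers on lymphocytes that bind the lymphotoxin β receptor.

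Levels are a gene's UMIs in a gate of cells per 1000000 UMIs of that gate (CPM), with an exact 95% Poisson interval. Intervals of levels, ratios and shares cover counting error only, not the difference between tumours. Those of levels and ratios also leave out the difference between cells, since they take each UMI as a separate draw. A single cell with many UMIs can therefore move a level outside its interval, as given for Lta below. A ratio was called past 1.5-fold only where the library with the higher level had at least 20 CPM and 20 UMIs. All ratios over control share the control library, so they are not independent of each other.

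The 26435 cells kept (6095, 5453, 6619 and 8268 from the control, phenformin, poly I:C and combination libraries) had 200 genes or more and mitochondrial UMIs below 20%. Their median depth was 6543, 8312, 8430 and 5902 UMIs per cell, and 8 to 21 cell barcodes were shared by any pair of libraries. Cells were assigned to 5 gates by raw UMIs: T (Cd3d, Cd3e and Cd3g summing to at least 2), NK (Ncr1, Klrb1c and Klre1 summing to at least 2 with a Cd3 sum of 0), macrophage (Csf1r, Cd68 and Adgre1 summing to at least 3), neutrophil (S100a8 and S100a9 summing to at least 5, with at least 1 UMI of Csf3r or Cxcr2) and tumour (Krt5 and Krt14 summing to at least 5 with a Ptprc count of 0). Over the 4 libraries they held 8342, 571, 9698, 887 and 1597 cells. A further 6326 cells met none of the 5 gates. These were 29.75%, 24.5%, 19.0% and 23.2% of the cells of the control, phenformin, poly I:C and combination libraries. A cell could meet more than 1 gate: 7.44 to 13.4% of the T gate and 12.9 to 35.6% of the neutrophil gate also met another, with the highest shares in the poly I:C library. The neutrophil gate had a median of 1984, 2269, 2530 and 2316 UMIs per cell in the control, phenformin, poly I:C and combination libraries. Its cells that met no other gate had 1844, 2129, 2060 and 2051. The overlapping cells were thus deeper, and they weigh more in the levels of the neutrophil gate than their share of cells. The 7 macrophage markers in the T gate summed to 792, 773, 2584 and 2054 CPM in the control, phenformin, poly I:C and combination libraries. In the same order, 5 neutrophil markers in the neutrophil gate summed to 24465, 34795, 22671 and 65262 CPM. The tumour gate holds cells that the CD45 enrichment should have removed.

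Tnf, Lta and Ltb lie side by side on mouse chromosome 17 (GRCm38, GENCODE vM21), within 10913 bases: Ltb at chr17:35194439-35196320 on the plus strand, Tnf at chr17:35199381-35202007 and Lta at chr17:35203165-35205351 on the minus strand. The gaps between them are 3060 bases (Ltb to Tnf) and 1157 bases (Tnf to Lta). The other members lie on separate chromosomes: Fasl at chr1:161780689-161788495 (minus), Tnfsf10 at chr3:27317028-27342427 (plus), Tnfrsf1b at chr4:145213463-145246870 (minus), Tnfrsf1a at chr6:125349362-125362484 (plus), Tnfrsf10b at chr14:69767472-69784411 (plus) and Fas at chr19:34290666-34327772 (plus). Promoter windows of 300 bases, from 250 bases before to 50 after the start site, were taken from RefSeq (GRCm38.p6) for 8 of the 9 members, all but Tnfrsf10b. The windows of the neighbours Ltb, Tnf and Lta are shown because their levels differed in different gates, and that of Tnfsf10 because it was the member past 1.5-fold lower in the tumour gate of all treated libraries. They lie at chr17:35194257-35194556 (plus strand), chr17:35201958-35202257 (minus), chr17:35205302-35205601 (minus) and chr3:27316827-27317126 (plus). Each is printed 5′ to 3′ on the gene's strand, with capitals marking matches on either strand to the κB, ISRE (GAAA, any 2 bases, GAAA) or GAS (TTCNNNGAA) motif.
Ltb: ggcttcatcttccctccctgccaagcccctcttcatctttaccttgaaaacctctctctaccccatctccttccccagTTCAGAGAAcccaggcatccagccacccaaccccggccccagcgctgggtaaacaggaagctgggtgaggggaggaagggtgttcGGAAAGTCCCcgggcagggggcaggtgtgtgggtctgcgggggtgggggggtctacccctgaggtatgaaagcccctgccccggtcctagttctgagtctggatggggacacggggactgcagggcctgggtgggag
Tnf: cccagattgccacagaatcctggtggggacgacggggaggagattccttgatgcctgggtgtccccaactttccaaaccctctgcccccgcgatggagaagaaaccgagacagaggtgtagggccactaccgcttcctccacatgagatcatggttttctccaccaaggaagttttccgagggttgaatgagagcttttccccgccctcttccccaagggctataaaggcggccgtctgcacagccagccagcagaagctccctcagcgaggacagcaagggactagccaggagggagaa
Lta: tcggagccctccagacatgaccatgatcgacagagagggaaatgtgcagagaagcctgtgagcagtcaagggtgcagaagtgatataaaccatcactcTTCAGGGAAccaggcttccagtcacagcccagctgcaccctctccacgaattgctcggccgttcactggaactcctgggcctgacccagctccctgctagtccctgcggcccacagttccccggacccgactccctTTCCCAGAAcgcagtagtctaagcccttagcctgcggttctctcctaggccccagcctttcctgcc
Tnfsf10: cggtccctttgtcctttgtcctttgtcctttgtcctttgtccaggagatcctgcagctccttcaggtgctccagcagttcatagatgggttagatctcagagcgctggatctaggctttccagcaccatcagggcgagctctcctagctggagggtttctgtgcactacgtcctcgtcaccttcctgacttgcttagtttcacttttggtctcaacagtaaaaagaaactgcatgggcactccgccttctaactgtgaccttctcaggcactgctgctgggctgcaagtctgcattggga
The Ltb window holds a κB match that starts 87 bases before the start site and a GAS match 172 bases before it. The Lta window holds 2 GAS matches, 152 and 16 bases before the start site, and the windows of Tnf, Tnfsf10 and Fasl hold no match to any of the 3 motifs. Among the receptors, Fas and Tnfrsf1a have a GAS match each (93 and 244 bases before the start site), and Tnfrsf1b has an ISRE match at 10 and a GAS match at 181 bases before it. No match overlaps another. Among 32851 mouse promoter windows of the same length, 8.46% hold the κB motif, 3.44% the ISRE and 8.298% the GAS. A match describes the letters and not a bound site.

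Lymphotoxins and Fas ligand were mostly T-cell transcripts in these tumours. TRAIL was divided between the T, tumour and macrophage gates and cells of no gate, and of the receptors Tnfrsf1a was carried largely by macrophages. In the 4 libraries the T gate held 83.3 to 86.6% of all Ltb UMIs, 79 to 95.7% of Lta UMIs and 71.7 to 84.1% of Fasl UMIs, against 26.2 to 31.8% of all UMIs. Tnfsf10 UMIs were in the T gate (41.6 to 59.8%), the tumour gate (10.5 to 25.4%) and the macrophage gate (12 to 23.3%). The tumour gate held 10.5 to 21.2% of all UMIs and the macrophage gate 39.3 to 51.5%, so macrophages held less Tnfsf10 than their share of UMIs. Tnf UMIs came from the macrophage gate (32.9 to 58.4%) and the T gate (22.1 to 27.9%), with 6.30 to 13.1% from the neutrophil gate, which held 1.21 to 2.23% of all UMIs. Of the receptors, Tnfrsf1a UMIs were mostly in the macrophage gate (60.1 to 75.5%), Tnfrsf1b UMIs in the macrophage (43.1 to 62.6%) and T gates (39.0 to 43.6%), and Fas UMIs in the macrophage (38.7 to 53.2%) and T gates (33.8 to 35.3%). The macrophage gate held 39.3 to 51.5% of all UMIs, and its shares of Tnfrsf1a and Tnfrsf1b UMIs were above this in each library, Tnfrsf1b by less. Its shares of Tnf and Fas UMIs were above it in some libraries and below it in others. These shares weight a gate by its number of cells and by its depth.

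**Figure D1:**
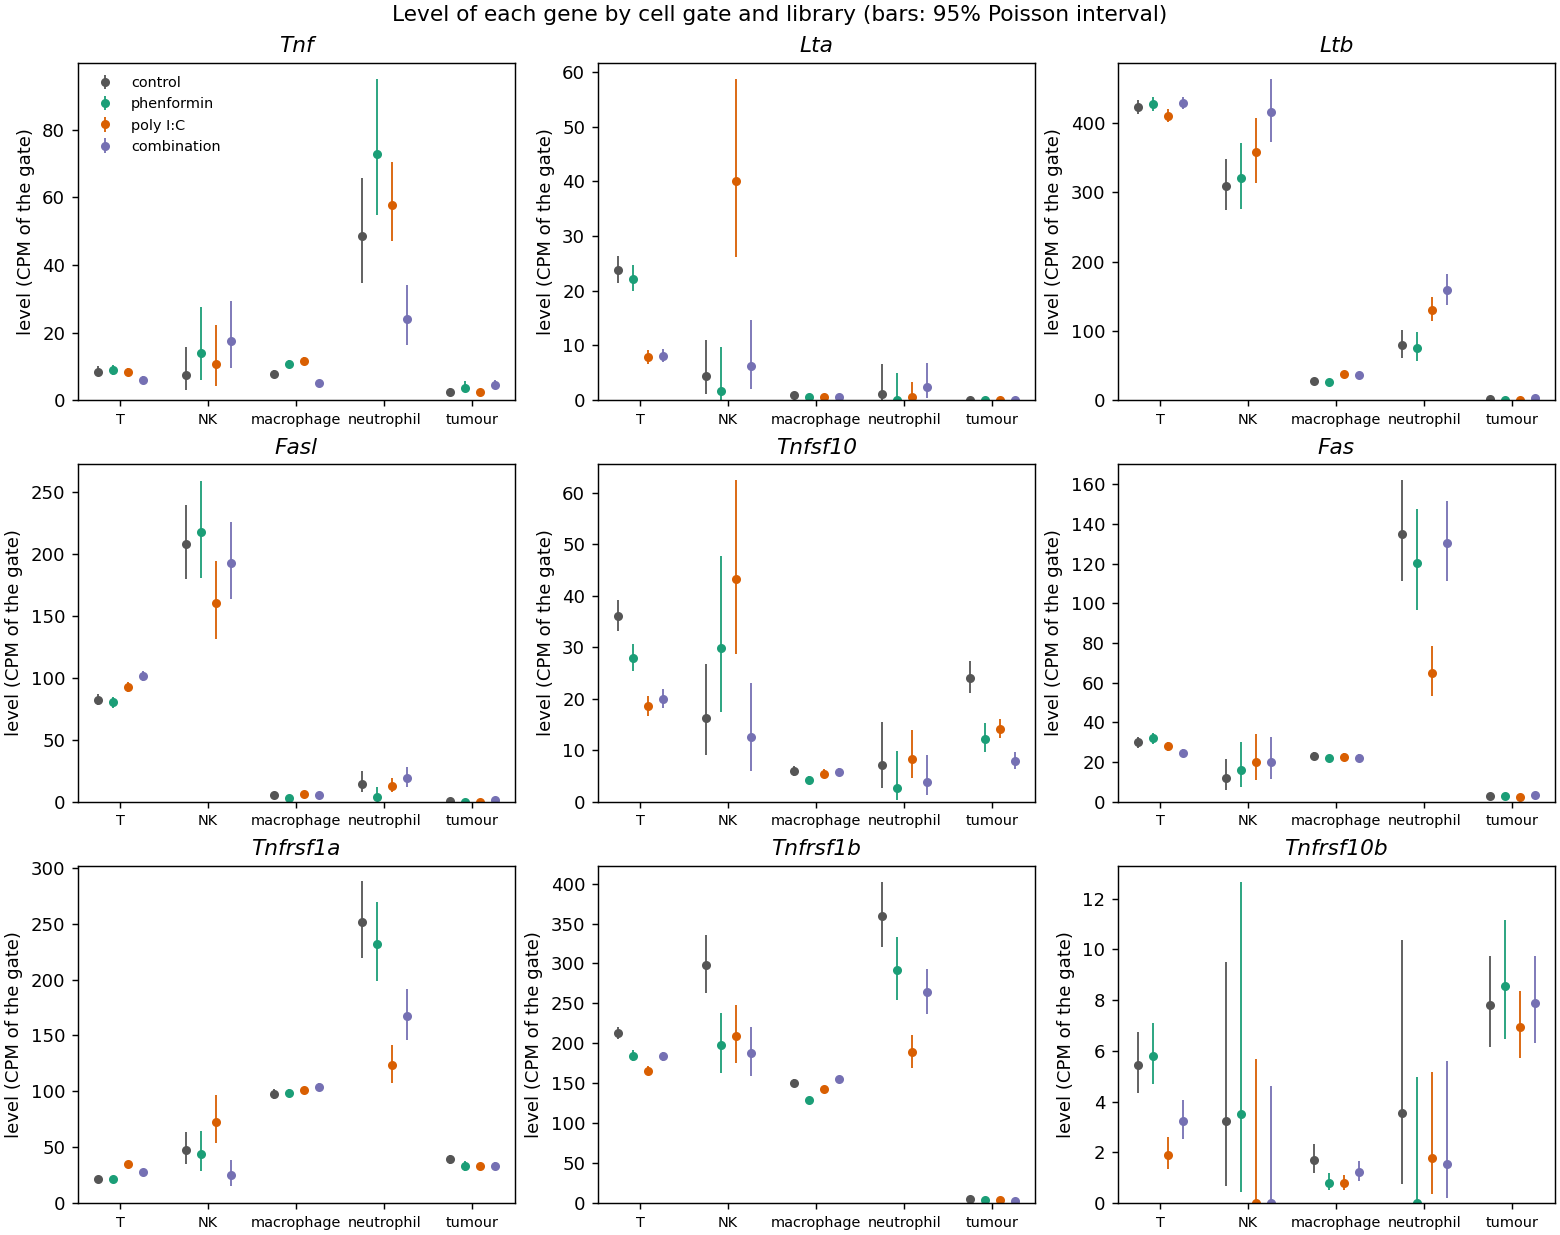
Level of each of the 9 genes (CPM of the gate, linear axes starting at 0) in the T, NK, macrophage, neutrophil and tumour gates of the 4 libraries (colours). Points are single libraries and bars are exact 95% Poisson intervals. Lta in the T gate is at 23.9, 22.2, 7.85 and 8.04 CPM in the control, phenformin, poly I:C and combination libraries.

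Across the 45 pairs of a gene and a gate, 22 to 24 had enough UMIs to be compared with the control. Of these, 3 were past 1.5-fold with phenformin (1 higher and 2 lower), 11 with poly I:C (5 higher and 6 lower) and 8 with the combination (1 higher and 7 lower). In the T gate, 7 of the 9 genes passed the low-value filter, and 0, 3 and 2 of them were past 1.5-fold for phenformin, poly I:C and the combination, where 1.70%, 13.2% and 7.18% of all genes that passed were. In the macrophage gate, 4 genes passed and none was past 1.5-fold, where 0.905%, 7.00% and 8.62% of all genes were. In the tumour gate, 2 passed and 1 of them, Tnfsf10, was past 1.5-fold in each comparison, where 3.38%, 17.8% and 13.6% of all genes were. In the NK gate, 1 of 4, 3 of 6 and 2 of 4 were past 1.5-fold, where 18.4%, 31.8% and 30.9% of all genes were. In the neutrophil gate, 1 of 5, 4 of 5 and 3 of 5 were, where 21.6%, 37.5% and 31.2% of all genes were. In the small NK and neutrophil gates (109 to 280 cells per library) a ratio past 1.5-fold was therefore common for any gene. The genes that passed owe their place to the library where they are high, so these counts describe them only. The median log2 ratio of the members that passed in the T gate was -0.03, -0.08 and -0.21 for phenformin, poly I:C and the combination, beside -0.07, -0.10 and -0.08 over all genes, and in the macrophage gate -0.08, 0.01 and 0.06 beside -0.03, -0.09 and -0.03. Of the 22 calls, 5 held under each of the 8 settings tried on single ratios: Tnfsf10 in the T gate for poly I:C and for the combination, Ltb in the neutrophil gate for the combination, and Tnfrsf1a and Tnfrsf1b in the neutrophil gate for poly I:C.

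**Figure D2:**
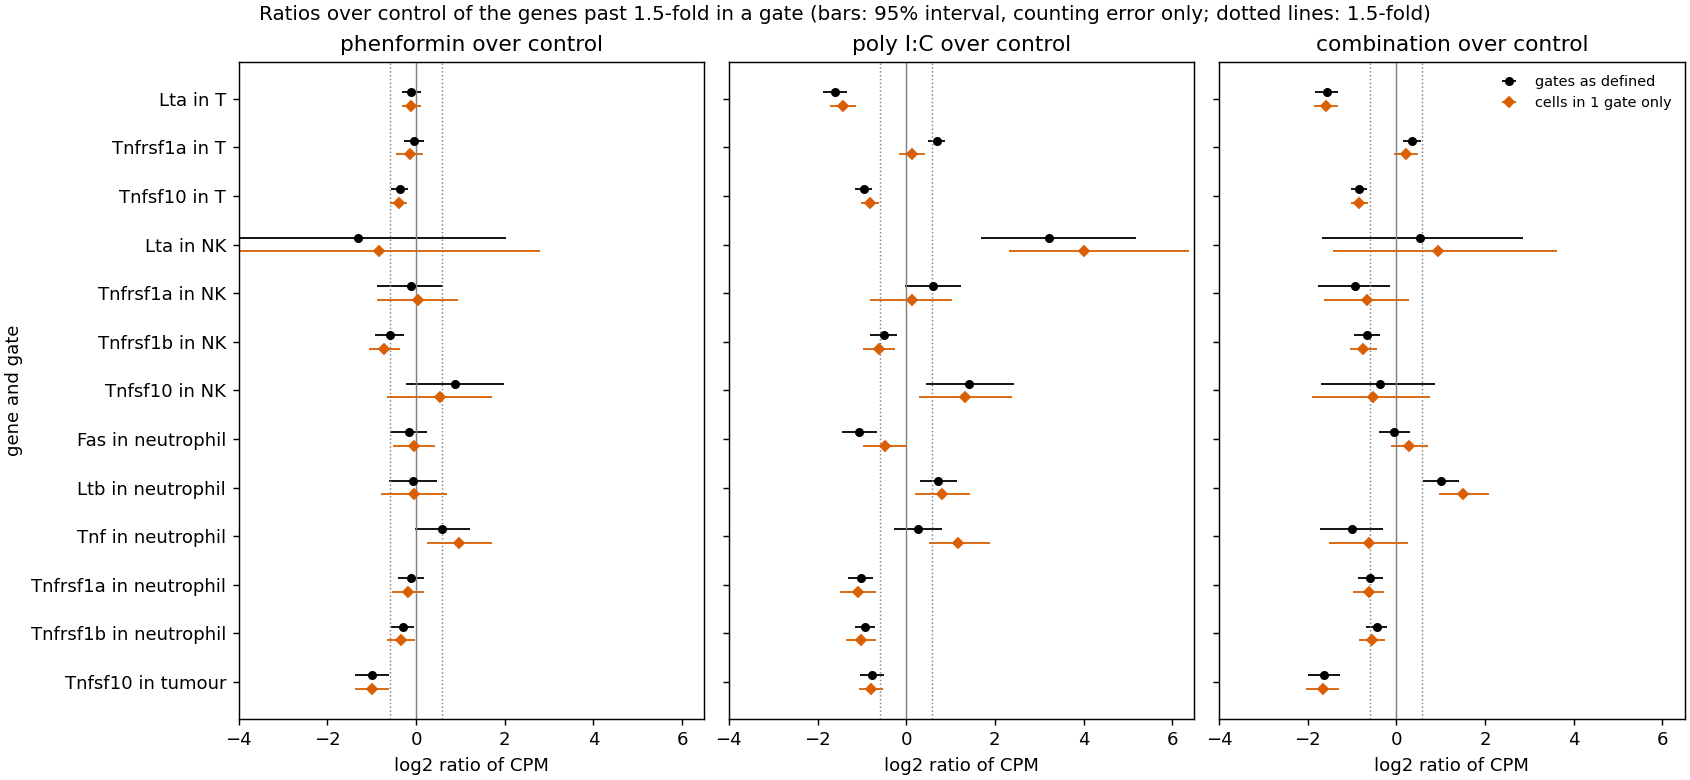
Log2 ratio of CPM over the control library for the 13 pairs of gene and gate that were past 1.5-fold in any comparison, with phenformin, poly I:C and the combination in separate panels. Black points use the gates as defined, orange diamonds only the cells that met 1 gate, bars are 95% intervals of counting error and dotted lines mark 1.5-fold. Lta and Tnfsf10 in the T gate and Tnfsf10 in the tumour gate are past 1.5-fold lower with both sets of cells for poly I:C and for the combination, whereas Tnfrsf1a in the T gate is past 1.5-fold for poly I:C only where cells of several gates are included.

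Lta, which encodes lymphotoxin α, was lower in T cells of both libraries with poly I:C than in the control. The T gate held 23.9 (21.5 to 26.4), 22.2 (19.98 to 24.7), 7.85 (6.67 to 9.17) and 8.04 (6.91 to 9.29) CPM of Lta in the control, phenformin, poly I:C and combination libraries, from 364, 356, 158 and 182 UMIs. The control and phenformin libraries were high and near each other, and both libraries with poly I:C were low, with intervals that do not overlap those of the other pair. The ratio over control was 0.932 (0.803 to 1.08) for phenformin, 0.329 (0.271 to 0.398) for poly I:C and 0.337 (0.280 to 0.403) for the combination. The share of T-gate cells with an Lta UMI was 9.16%, 9.18%, 3.80% and 3.39%, and after each cell was thinned to 1000 UMIs it was 1.99%, 1.35%, 0.744% and 0.624%. In the tumour gate, which should lack the transcript, 0 to 0.266% of cells had an Lta UMI at a median depth of 25153 to 29810 UMIs, against 5063 to 7380 in the T gate. Over cells that met the T gate alone the ratios were 0.373 (0.304 to 0.454) for poly I:C and 0.335 (0.277 to 0.404) for the combination. As a mean over cells they were 0.356 and 0.375, and without cells of over 2 times the median depth 0.387 and 0.399, but no library then reached the 20 CPM needed for a call.

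The T gate itself differed in makeup between the libraries. Cd4 UMIs were found in 24.5%, 21.4%, 11.3% and 14.3% of its cells in the control, phenformin, poly I:C and combination libraries, and Cd8a or Cd8b1 UMIs in 59.7%, 65.1%, 79.4% and 66.4%. Lta was therefore also taken within finer T gates that leave out macrophage- and neutrophil-gate cells. Among T cells with Cd8a or Cd8b1 but neither Cd4 nor Foxp3 (CD8 T cells below), Lta was at 21.3, 18.4, 6.59 and 9.58 CPM in the same order of libraries, a ratio over control of 0.310 (0.232 to 0.411) for poly I:C and 0.451 (0.355 to 0.570) for the combination. Among T cells with Cd4 but neither Cd8 gene nor Foxp3 (CD4 T cells), the level was 91.2 (76.3 to 108), 98.1 (82.7 to 115), 58.2 (40.1 to 81.7) and 21.4 (12.9 to 33.3) CPM, a ratio of 0.638 (0.422 to 0.94) for poly I:C and 0.234 (0.137 to 0.380) for the combination. The interval of the poly I:C level overlapped that of the control. In every library the CD4 cells held more Lta per UMI than the CD8 cells. Single cells weighed on these levels, with 74, 37, 15 and 3 of 132, 144, 33 and 19 CD4 T-cell UMIs in 1 cell of each library. Without that cell the CD4 levels were 40.7, 74.1, 34.7 and 18.2 CPM, with ratios of 1.82 (1.31 to 2.55) for phenformin, 0.853 (0.473 to 1.47) for poly I:C and 0.448 (0.240 to 0.789) for the combination. The CD8 levels without the top cell were 16.1, 16.2, 5.52 and 7.59 CPM, with ratios of 0.343 (0.249 to 0.470) and 0.472 (0.360 to 0.618) for poly I:C and the combination. Within CD8 cells both libraries with poly I:C were thus lower with and without the top cells, whereas within CD4 cells the interval of the poly I:C ratio without them included 1. Foxp3 T cells, with Foxp3 and neither Cd8 gene, held 0.957 to 4.77 CPM, from 1 to 6 UMIs.

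Lta was carried by few cells at high counts. T-gate cells with 5 or more Lta UMIs numbered 10, 13, 7 and 4 of 1626, 1493, 2159 and 3064 in the 4 libraries, and they held 54.4%, 46.4%, 44.9% and 30.2% of the Lta UMIs of the gate. A single cell of the control library held 74 UMIs. Without the cell with the most Lta UMIs in each library, the levels were 19.0, 19.95, 7.12 and 6.85 CPM, and both libraries with poly I:C were still the lower ones. Among the cells with 5 or more Lta UMIs, Il13, which encodes a type 2 cytokine, was detected in 4, 7, 4 and 1 cells, and Ifng, which encodes interferon γ, in 7, 8, 6 and 4. Among T-gate cells with no Lta UMI, Il13 was detected in 1.69%, 1.03%, 0.385% and 0.237% and Ifng in 7.18%, 13.7%, 13.96% and 10.4%. The cells with many Lta UMIs were also deeper, with a median of 17438, 28233, 30758 and 16330 UMIs against 6348, 6927, 6158 and 4984 in cells without Lta, and the part of depth in this co-detection was not tested.

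In the NK gate Lta was at 4.33, 1.75, 40.1 and 6.25 CPM, from 4, 1, 26 and 5 UMIs. The high value of the poly I:C library rested on 1 cell with 20 of its 26 UMIs, and without that cell it was 9.36 CPM, too low for a call. Lta was at 0.635 to 0.933 CPM in the macrophage, 0 to 2.33 CPM in the neutrophil and 0 to 0.101 CPM in the tumour gate.

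**Figure D3:**
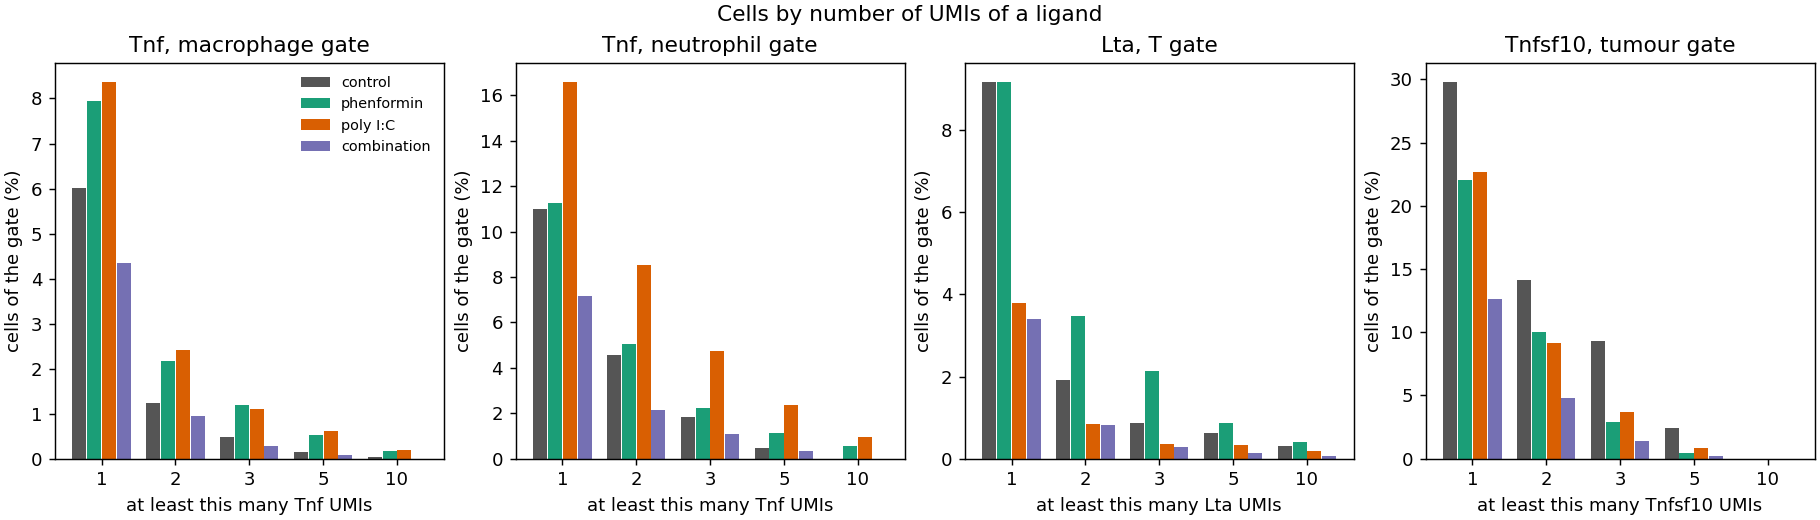
Share of a gate's cells (percent, axes starting at 0) with at least 1, 2, 3, 5 or 10 UMIs of Tnf in the macrophage and neutrophil gates, Lta in the T gate and Tnfsf10 in the tumour gate, by library (colours). For Lta, 9.16%, 9.18%, 3.80% and 3.39% of T-gate cells of the control, phenformin, poly I:C and combination libraries had at least 1 UMI. Shares are not corrected for depth.

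Tnfsf10, which encodes TRAIL, was lower than in the control in tumour cells of all treated libraries and in T cells, most so there in the libraries with poly I:C. The tumour gate held 24.1 (21.1 to 27.3), 12.2 (9.61 to 15.2), 14.1 (12.3 to 16.1) and 7.81 (6.23 to 9.65) CPM in the control, phenformin, poly I:C and combination libraries, from 238, 78, 228 and 85 UMIs. The control library was the highest and the combination library the lowest, and the intervals of the phenformin and poly I:C libraries overlapped each other. The ratio over control was 0.505 (0.386 to 0.655) for phenformin, 0.586 (0.487 to 0.706) for poly I:C and 0.324 (0.250 to 0.417) for the combination. The combination library had 0.553 (0.426 to 0.713) of the poly I:C level and 0.642 (0.467 to 0.885) of the phenformin level. Of tumour-gate cells, 29.8%, 22.0%, 22.6% and 12.6% had a Tnfsf10 UMI. After thinning only 9, 4, 7 and 2 cells had one, or 2.42%, 1.93%, 1.18% and 0.477%. The poly I:C ratio was 0.691 under TMM scaling and the phenformin ratio 0.799 after thinning, both inside 1.5-fold.

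In the T gate Tnfsf10 was at 36.0 (33.0 to 39.1), 27.8 (25.3 to 30.6), 18.5 (16.7 to 20.5) and 20 (18.2 to 21.9) CPM in the control, phenformin, poly I:C and combination libraries. The control was the highest and both libraries with poly I:C were the lowest. The ratio over control was 0.774 (0.681 to 0.878) for phenformin, 0.515 (0.450 to 0.588) for poly I:C and 0.556 (0.490 to 0.631) for the combination. Within CD8 T cells the levels were 34.8, 28.4, 20.6 and 22.3 CPM, a ratio of 0.593 (0.495 to 0.709) for poly I:C and 0.641 (0.542 to 0.758) for the combination. Within CD4 T cells the 4 levels were 45.6, 30.6, 35.3 and 31.5 CPM from 20 to 66 UMIs, with ratios of 0.773 (0.444 to 1.29) and 0.690 (0.427 to 1.09).

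In the NK gate the poly I:C library had the highest Tnfsf10 level: the 4 libraries held 16.2, 29.8, 43.2 and 12.5 CPM from 15, 17, 28 and 10 UMIs, a ratio over control of 2.66 (1.37 to 5.35) for poly I:C. Of the poly I:C UMIs, 7 lay in 1 cell, and without the cell with the most UMIs in each library the levels were 13.1, 21.4, 32.8 and 8.84 CPM. Without cells of over 2 times the median depth the poly I:C ratio was 1.43, inside 1.5-fold. In the macrophage gate the level was 4.19 to 5.87 CPM, and in the neutrophil gate 2.70 to 8.27 CPM from 2 to 14 UMIs.

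Fasl, which encodes Fas ligand, was found in T and NK cells, and in both gates no treatment was past 1.5-fold over control. The T gate held 82.1 (77.7 to 86.8), 80.2 (75.8 to 84.7), 92.1 (88.0 to 96.4) and 101 (97.0 to 105) CPM in the control, phenformin, poly I:C and combination libraries. Both libraries with poly I:C were above both without it, at 1.12 (1.04 to 1.21) times the control for poly I:C and 1.23 (1.15 to 1.32) for the combination. Within CD8 T cells the levels were 109, 104, 131 and 133 CPM, while CD4 T cells held 37.1 to 45.9 CPM and Foxp3 T cells 1.92 to 14.4 CPM. The share of CD8 cells in the T gate was also higher in the libraries with poly I:C; within CD8 T cells alone the ratio was 1.20 (1.10 to 1.31) for poly I:C and 1.21 (1.12 to 1.32) for the combination. The NK gate held 208, 217, 160.3 and 193 CPM from 192, 124, 104 and 154 UMIs, with the poly I:C library the lowest at a ratio of 0.771 (0.601 to 0.984). In cells of the NK gate alone that ratio was 1.01 (0.784 to 1.29). A Fasl UMI was found in 41.7 to 49% of T-gate cells and 50 to 63.3% of NK-gate cells, against 0 to 1.43% of the deeper tumour-gate cells.

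Ltb, which encodes the membrane-anchored lymphotoxin β, was at 0.971 to 1.01 times the control in the T gate and was higher in neutrophil-gate cells of the libraries with poly I:C. The T gate held 423 (413 to 434), 427 (417 to 437), 411 (402 to 419.7) and 429 (420.3 to 437) CPM in the control, phenformin, poly I:C and combination libraries. The finer T gates differed from this. CD8 T cells held 422, 443, 535 and 488 CPM, 1.27 (1.21 to 1.32) times the control for poly I:C. Foxp3 T cells held 710.3, 760.2, 453 and 717 CPM, with the poly I:C library low at 0.638 (0.556 to 0.730) of the control, from 284 UMIs in 79 cells. In the NK gate Ltb was at 309.6, 321, 358 and 416 CPM, highest in the combination library at 1.34 (1.14 to 1.58) times the control. That ratio went past 1.5-fold without cells of over 2 times the median depth (1.52) and after thinning (1.765). Over cells that met the NK gate alone, poly I:C was the highest at 1.38 (1.15 to 1.66) times the control, with the combination at 1.34 (1.14 to 1.58). In these cells Ltb was at 346, 361, 478 and 463 CPM. In cells gated on B-cell genes (Cd79a, Cd79b and Ms4a1 summing to at least 3 with a Cd3 sum of 0) it was at 148, 147, 76.9 and 73.7 CPM, from 81, 99, 88 and 207 cells. There both libraries with poly I:C were low, at 0.520 (0.384 to 0.701) and 0.498 (0.374 to 0.661) of the control. Macrophage markers in the B-cell gate summed to 1978, 2167, 4510 and 7844 CPM and B-cell markers to 1397, 1478, 794 and 1263 CPM. Over the 70, 87, 70 and 153 of these cells that met none of the 5 gates, macrophage markers summed to 197, 94.0, 156 and 279 CPM and B-cell markers to 1628, 1753, 1051 and 2118 CPM. There Ltb was at 174, 174, 91.9 and 116 CPM, with ratios of 0.530 (0.379 to 0.736) for poly I:C and 0.666 (0.486 to 0.909) for the combination.

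In the neutrophil gate Ltb was at 79.2 (61.4 to 101), 75.6 (57.1 to 98.2), 131 (114 to 149) and 158 (137 to 182) CPM, from 67, 56, 221 and 204 UMIs. The control and phenformin libraries were low and the poly I:C and combination libraries high, with no overlap between these pairs, and the ratio over control was 1.65 (1.25 to 2.20) for poly I:C and 1.998 (1.51 to 2.67) for the combination. T-cell markers in the gate summed to 245, 204, 447 and 347 CPM, also higher in the libraries with poly I:C. Among the cells that met the neutrophil gate alone (183, 155, 136 and 218 cells), T-cell markers summed to 82.6, 35.0, 64.6 and 23.0 CPM, while Ltb was at 82.6, 80.6, 145 and 234 CPM, 1.75 (1.15 to 2.71) and 2.83 (1.94 to 4.22) times the control. The difference was thus as large without the cells that also met the T gate. Neutrophil markers in these cells summed to 39545, 61074, 55574 and 134844 CPM in the control, phenformin, poly I:C and combination libraries. Other markers were not level either: in the same order, those of plasmacytoid dendritic cells summed to 223, 231, 833 and 239 CPM, those of migratory dendritic cells to 34.4, 18.8, 477 and 15.3 CPM and those of tumour cells to 599, 13.4, 989 and 30.6 CPM. In the whole neutrophil gate, macrophage markers summed to 1523, 2994, 4655 and 5818 CPM. The part of this makeup in the Ltb difference was not tested. As a mean over cells of the whole gate the poly I:C ratio was 1.48, inside 1.5-fold. An Ltb UMI was found in 18.8%, 14.6%, 37.0% and 38.6% of neutrophil-gate cells, and after thinning in 9.76%, 5.52%, 15.0% and 20.1%. In the tumour gate 1.86 to 5.05% of cells had one, and 0 to 0.269% after thinning.

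In the macrophage gate Ltb was at 28.0, 26.2, 38.4 and 37.0 CPM. Its ratio over control was 1.37 (1.25 to 1.51) for poly I:C, and 0.952 (0.814 to 1.12) over cells that met the macrophage gate alone. For the combination it was 1.32 (1.20 to 1.46), and 1.40 (1.21 to 1.63) over cells that met the macrophage gate alone.

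Tnf, the family's inflammatory cytokine, was lower in the macrophage and neutrophil gates of the combination library than in those of either single-treatment library. The macrophage gate held 7.69 (6.58 to 8.92), 10.7 (9.56 to 11.9), 11.7 (10.7 to 12.9) and 5.14 (4.38 to 5.999) CPM in the control, phenformin, poly I:C and combination libraries, from 173, 336, 438 and 162 UMIs. Both single treatments were above the control and the combination was below it, without overlap of the intervals with that of the control. The ratio over control was 1.39 (1.15 to 1.68) for phenformin, 1.53 (1.28 to 1.83) for poly I:C and 0.669 (0.537 to 0.834) for the combination, and the combination library had 0.438 (0.364 to 0.526) of the poly I:C and 0.482 (0.397 to 0.583) of the phenformin level. All these levels were under the 20 CPM minimum for a call. Of macrophage-gate cells, 6.01%, 7.94%, 8.37% and 4.35% had a Tnf UMI, and 0.740%, 1.55%, 1.25% and 0.618% after thinning. In the deeper tumour gate, 5.59%, 9.57%, 5.24% and 8.33% had one, and 0%, 0%, 0.508% and 0.716% after thinning, so the unthinned macrophage shares are near those of the tumour gate. Whether the tumour-gate UMIs are background or come from those cells was not tested.

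Macrophage-gate cells with 5 or more Tnf UMIs numbered 3, 12, 16 and 2 in the 4 libraries. They held 13.9%, 32.7%, 38.8% and 6.79% of the Tnf UMIs of the gate. Cxcl2, which encodes a neutrophil chemoattractant, was detected in 3, 10, 15 and 1 of them. It was also detected in 63.8%, 70.7%, 65.7% and 47.7% of macrophage-gate cells with no Tnf UMI, and a link between the 2 genes was not tested. In macrophage-gate cells with at least 3 UMIs of Ly6c2, a marker of recruited monocytes, and fewer than 10 of the C1q genes, Tnf was at 10.4 (7.31 to 14.5), 15.5 (12.2 to 19.4), 29.8 (25.3 to 34.9) and 6.19 (3.97 to 9.21) CPM from 36, 77, 157 and 24 UMIs. There the poly I:C library had 2.86 (1.98 to 4.23) times the control, and the combination library 0.208 (0.129 to 0.321) of the poly I:C level. In macrophages with 10 or more C1q UMIs (5492 of the 9698 macrophage-gate cells) the levels were 5.27, 6.02, 8.16 and 4.82 CPM. There the combination library had 0.801 of the phenformin and 0.5905 of the poly I:C level, from 60 to 188 UMIs per library. Both differences were smaller than in the Ly6c2 cells, and the combination level was near that of the control. No interval is given for these ratios, so a level below phenformin is not established in the C1q cells.

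In the neutrophil gate Tnf was at 48.5 (34.8 to 65.8), 72.9 (54.8 to 95.1), 57.9 (47.0 to 70.5) and 24.1 (16.4 to 34.2) CPM, from 41, 54, 98 and 31 UMIs. The combination library was the lowest, at 0.496 (0.301 to 0.811) of the control, 0.416 (0.268 to 0.628) of the poly I:C and 0.330 (0.205 to 0.523) of the phenformin level. The phenformin library was the highest, but 1 cell held 19 of its UMIs, and without the cell with the most UMIs in each library the levels were 42.7, 47.5, 48.5 and 20.2 CPM, with the phenformin ratio at 1.11. After thinning the combination ratio was 0.811, inside 1.5-fold. Over cells that met the neutrophil gate alone the levels were 62.0, 121, 140.3 and 40.2 CPM, and the ratios over control were 1.95 (1.19 to 3.27), 2.27 (1.42 to 3.70) and 0.649 (0.349 to 1.19) for phenformin, poly I:C and the combination. For poly I:C the ratio with all cells was 1.19 (0.821 to 1.76); it was past 1.5-fold in those cells, as a mean over cells (2.34), after thinning (2.89) and without deep cells (3.38). Tnf was at 6.05 to 8.87 CPM in the T gate, 7.58 to 17.5 CPM from 7 to 14 UMIs in the NK gate and 2.29 to 4.50 CPM in the tumour gate. Over cells that met the tumour gate alone the 4 libraries held 2.57, 3.80, 2.31 and 4.57 CPM, from 25, 24, 37 and 49 UMIs. The combination ratio over control was 1.78 (1.08 to 3.01) there, at levels too low for a call.

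**Figure D4:**
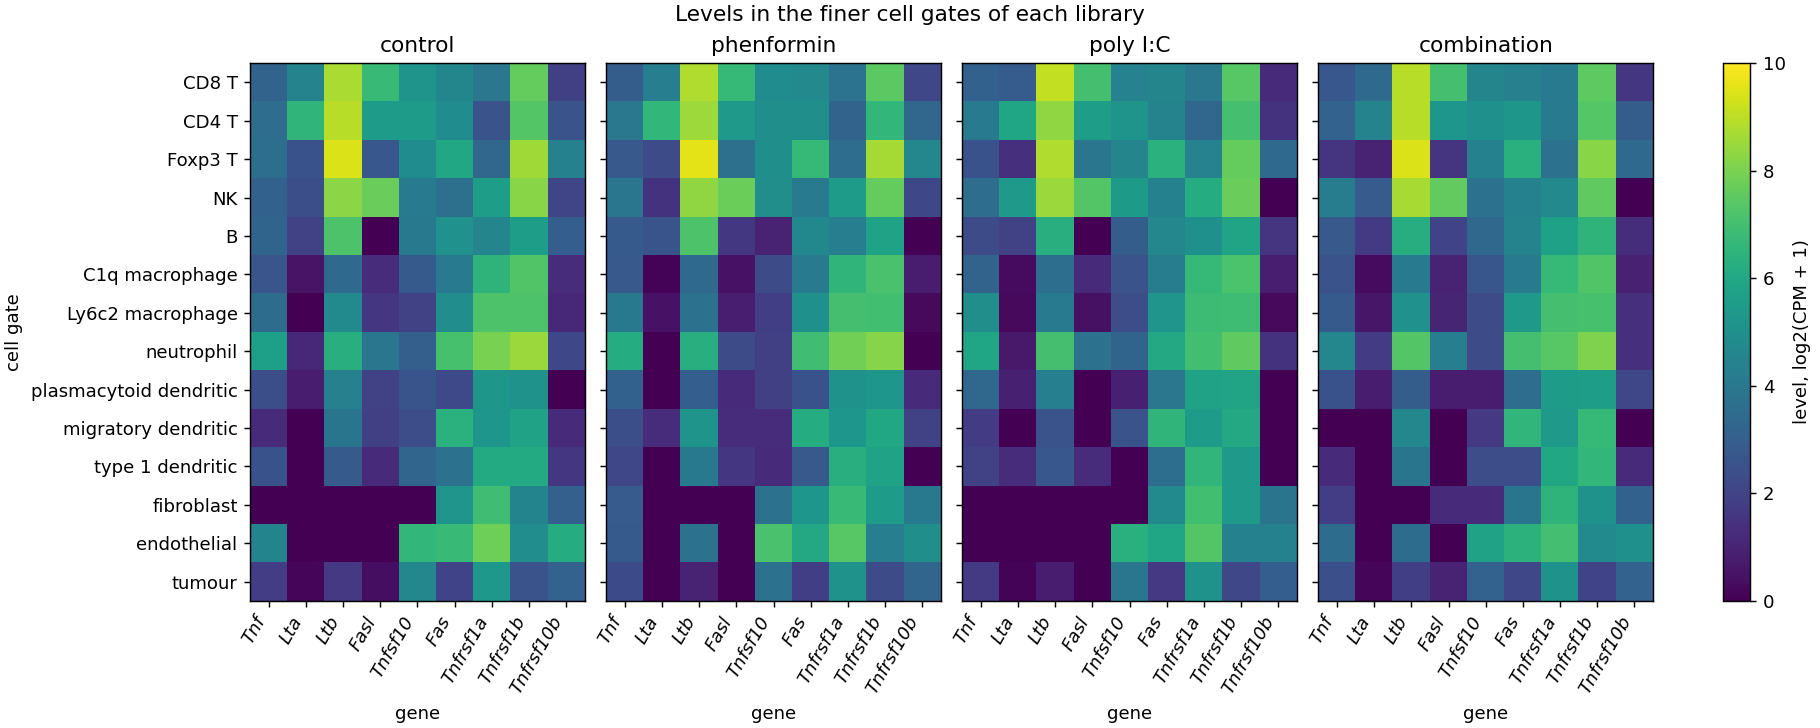
Level of the 9 genes as log2(CPM + 1) (colour, 1 scale for the 4 panels) in 14 gates, including finer T-cell and macrophage gates and gates on B-cell, dendritic, fibroblast and endothelial genes, in each library. In the endothelial gate, which holds 15 to 51 cells per library, Tnfsf10 is at 52.9 to 139 CPM, and Fasl is at 104 to 133 CPM in CD8 T cells. A level of 0 in a small gate is a count of 0.

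Fas, the death receptor of Fas ligand, differed little between treatments in the whole T and macrophage gates. The finer macrophage gates were less alike. The C1q cells held 16.6 to 17.7 CPM over the libraries and the Ly6c2 cells 29.3 to 40.8 CPM, with poly I:C at 1.04 and 1.24 times the control. The macrophage gate held 23.1, 21.7, 22.7 and 22.2 CPM in the control, phenformin, poly I:C and combination libraries, with ratios over control of 0.9401 (0.838 to 1.06), 0.982 (0.879 to 1.10) and 0.959 (0.855 to 1.08). The T gate held 29.8, 31.9, 27.9 and 24.5 CPM, the lowest ratio being 0.820 (0.723 to 0.930) for the combination. Among T cells the Foxp3 gate held 62.0 (49.0 to 77.4), 103 (83.9 to 125), 82.9 (61.9 to 109) and 81.4 (65.0 to 101) CPM, and its phenformin level was 1.66 (1.22 to 2.25) times the control, while CD8 T cells held 19.6 to 25.4 CPM. Cells with at least 2 Ccr7 UMIs, a Fscn1 and a Ptprc UMI and a Cd3 sum of 0, markers of migratory dendritic cells, held 72.1 to 96.1 CPM from 37 to 61 UMIs. Tumour-gate cells held 2.17 to 3.40 CPM, below the T, macrophage and neutrophil gates in all 4 libraries, and 5.41 to 6.91% of them had a Fas UMI.

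In the neutrophil gate Fas was at 135 (111 to 162), 120.1 (96.5 to 148), 65.0 (53.4 to 78.3) and 130.4 (111 to 152) CPM. The poly I:C library was alone low, at 0.482 (0.367 to 0.632) of the control. Over cells that met no other gate the levels were 195, 188, 140.3 and 239 CPM and the ratio was 0.719 (0.511 to 1.01). Without cells of over 2 times the median depth it was 0.920, and as a mean over cells 0.699. The last 3 ratios lie inside 1.5-fold.

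Tnfrsf1a, which encodes TNFR1, was at 1.01 to 1.06 times the control in the whole macrophage gate and was lower in neutrophil-gate cells of the libraries with poly I:C. The macrophage gate held 97.4, 98.2, 101 and 104 CPM in the control, phenformin, poly I:C and combination libraries. The finer macrophage gates differed from this. The poly I:C level was 1.16 times the control in the C1q cells and 0.775 of it in the Ly6c2 cells. For phenformin these ratios were 1.04 and 0.895. The neutrophil gate held 252 (219 to 288), 232 (199 to 269.6), 124 (107 to 141) and 168 (146 to 192) CPM. The libraries without poly I:C were high and those with it low, with intervals that do not overlap, and the ratio over control was 0.490 (0.403 to 0.596) for poly I:C and 0.666 (0.548 to 0.808) for the combination. Over cells that met the neutrophil gate alone the levels were 363, 319.9, 172 and 236 CPM and the ratios 0.473 (0.356 to 0.625) and 0.650 (0.509 to 0.827), as low as with the other cells included. Under TMM scaling the combination ratio was 0.729, inside 1.5-fold. Macrophage markers in the whole gate, and dendritic and tumour markers in the cells of the neutrophil gate alone, differed between the libraries as given for Ltb, and their part in the Tnfrsf1a levels was not tested.

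In the T gate Tnfrsf1a was at 21.7, 21.1, 34.9 and 27.6 CPM, 1.61 (1.41 to 1.84) times the control for poly I:C. Macrophage markers in the T gate were higher in the same libraries, as given above. Over cells that met the T gate alone, in which macrophage markers summed to 107, 102, 162 and 216 CPM, Tnfrsf1a was at 14.1, 12.7, 15.3 and 16.4 CPM and the poly I:C ratio was 1.09 (0.889 to 1.33). Without cells of over 2 times the median depth it was 1.20, and as a mean over cells 1.30, both inside 1.5-fold. CD8 T cells held 14.6, 13.03, 15.1 and 15.8 CPM. The tumour gate held 39.0 (35.2 to 43.1), 32.9 (28.6 to 37.6), 33.2 (30.4 to 36.1) and 33.1 (29.7 to 36.7) CPM, with all treated libraries at 0.842 to 0.850 of the control. A Tnfrsf1a UMI was found in 51.4 to 61.2% of tumour-gate cells, and in 3.103 to 4.84% after thinning. The NK gate held 47.6, 43.8, 72.4 and 25 CPM from 20 to 47 UMIs, and macrophage markers there summed to 523, 1607, 3025 and 820 CPM. In cells of the NK gate alone the poly I:C ratio was 1.10 (0.565 to 2.06), against 1.52 (0.986 to 2.35) with all cells of the gate. The combination ratio was 0.525 (0.293 to 0.909) with all cells, and 0.735 with stricter gates, which is inside 1.5-fold.

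Tnfrsf1b, which encodes TNFR2, was at 3.03 to 4.85 CPM in the tumour gate and far higher in the leukocyte gates. In the T, NK and neutrophil gates, each taken as a whole, it was highest in the control library. The T gate held 212 (205 to 219.9), 184 (178 to 191), 166 (160 to 171) and 184 (178 to 189) CPM in the control, phenformin, poly I:C and combination libraries, a ratio over control of 0.779 (0.742 to 0.818) for poly I:C. The neutrophil gate held 359.6 (320.3 to 402), 292 (254 to 333), 189 (169 to 211) and 264 (237 to 294) CPM, with the control highest and poly I:C lowest at a ratio of 0.526 (0.448 to 0.617). In cells of the neutrophil gate alone that ratio was 0.492 (0.388 to 0.622). The part of the unequal makeup of this gate, given for Ltb, was not tested. The NK gate held 298, 198, 209.6 and 188 CPM, with all treated libraries at 0.630 to 0.704 of the control, and the macrophage gate 150, 129, 142 and 155 CPM. Under TMM scaling the NK ratios were 0.680 for phenformin and 0.697 for the combination, both inside 1.5-fold. The NK ratio for poly I:C went past 1.5-fold in cells of that gate alone (0.654), with stricter gates (0.505) and after thinning (0.5535). After thinning the T-gate ratio for poly I:C was past it as well, at 0.622. Foxp3 T cells, in which TNFR2 is known as a marker of activated regulatory cells, held 377 (344 to 413), 397 (359 to 438), 199 (166 to 238) and 295 (263 to 329.7) CPM, against 169 to 198 CPM in CD8 T cells. The poly I:C library was the lowest of the Foxp3 gate, at 0.529 (0.431 to 0.645) of the control, from 125 UMIs.

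Tnfrsf10b, the death receptor of TRAIL, passed the low-value filter in none of the 5 gates. The tumour gate held 7.79 (6.15 to 9.73), 8.57 (6.46 to 11.2), 6.93 (5.71 to 8.34) and 7.90 (6.32 to 9.75) CPM in the control, phenformin, poly I:C and combination libraries, from 77, 55, 112 and 86 UMIs. The intervals of all 4 libraries overlapped, in the cells whose Tnfsf10 was lower in every treated library. A UMI was found in 17.1 to 21.1% of tumour-gate cells. In the T gate Tnfrsf10b was at 5.44, 5.81, 1.89 and 3.22 CPM, from 83, 93, 38 and 73 UMIs. There the poly I:C library was the lowest, at 0.347 (0.230 to 0.515) of the control. Foxp3 T cells held 19.9, 23.9, 9.57 and 9.57 CPM from 25, 24, 6 and 10 UMIs and CD8 T cells 1.36 to 3.37 CPM, and Foxp3 was detected in 17.4%, 16.9%, 7.69% and 9.56% of T-gate cells. The part of this makeup in the lower level was not tested. In the macrophage gate Tnfrsf10b was at 0.777 to 1.69 CPM.

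Other genes of the family, from lists of 13 ligands, 24 receptors, 25 death-signalling genes and 5 genes of ligand shedding and mRNA decay besides the members, were compared in the same way. Of all genes that passed in the T gate, 1.70%, 13.2% and 7.18% were past 1.5-fold for phenformin, poly I:C and the combination. In the macrophage gate 0.905%, 7.00% and 8.62% were. Counts of a few genes near these shares are no result about a list. In the T gate, 0 of 3 ligands that passed the filter were higher and 2 were lower for poly I:C and for the combination: Tnfsf8 (CD30 ligand), at 0.356 (0.317 to 0.399) and 0.363 (0.325 to 0.405) of the control, and Tnfsf11 (RANKL), at 0.419 (0.365 to 0.481) and 0.434 (0.381 to 0.495). Of the receptors in the T gate, 2 of 6 were higher for poly I:C, Cd40 at 2.30 (1.92 to 2.78) and Tnfrsf12a (the TWEAK receptor) at 1.64 (1.46 to 1.84) times the control, and none was lower. For the combination 2 of 5 were higher, the co-stimulatory receptor Cd27 at 1.72 (1.61 to 1.84) and Tnfrsf12a at 1.69 (1.51 to 1.89). For phenformin 1 of 5 was lower, Tnfrsf12a at 0.631 (0.543 to 0.734), and 0 of 3 ligands and 0 of 20 death-signalling genes were past 1.5-fold. Macrophages and B cells express Cd40, and macrophage markers were higher in the T gate of the libraries with poly I:C; their part was not tested.

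Of 20 death-signalling genes that passed in the T gate, none was higher and 2 were lower for poly I:C and for the combination: Birc3 (the ubiquitin ligase cIAP2), at 0.602 (0.552 to 0.656) and 0.626 (0.576 to 0.680), and Bcl2l1 (the anti-apoptotic Bcl-xL), at 0.655 (0.604 to 0.711) and 0.633 (0.584 to 0.686). That count is near the share of all genes. In the macrophage gate, 2 of 20 were lower for poly I:C, Birc3 at 0.654 (0.612 to 0.700) and Apaf1, the apoptosome scaffold, at 0.649 (0.608 to 0.692), whereas Bcl2l1 was higher at 1.53 (1.43 to 1.63). Bcl2l1 was thus lower in T cells and higher in macrophages of the same library, a difference that was not tested. Zfp36l1, which encodes an mRNA-decay factor, was lower in both gates and both libraries with poly I:C, at 0.462 (0.441 to 0.484) and 0.539 (0.517 to 0.563) of the control in T cells and 0.483 (0.466 to 0.4996) and 0.505 (0.488 to 0.524) in macrophages. In macrophages 1 of 8 receptors was higher for poly I:C, Tnfrsf12a at 1.77 (1.64 to 1.92). For the combination 1 of 8 was lower, Tnfrsf9 (4-1BB) at 0.651 (0.606 to 0.700), and 1 of 2 ligands was higher, Tnfsf13b (BAFF) at 1.67 (1.53 to 1.83). For phenformin none of the 2 ligands, 8 receptors and 20 death-signalling genes that passed in macrophages was past 1.5-fold, where 0.905% of all genes were. That count is near the share of all genes.

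The genes whose level was most like a member's over the 20 sums of 5 gates in 4 libraries, by Pearson correlation of log2(CPM + 5) among 5041 genes, are given as a description, since the sums of 1 library share its depth and those of 1 gate share a cell type. For Tnf they were Ankrd33b, G0s2 and Iqsec1 (r of 0.913 to 0.915), for Lta St6galnac3, Ilk and Ubxn2a (r of 0.819 to 0.851), and for Ltb Traf3ip3, Grap and Ptpn22 (r of 0.986 to 0.989). For Fasl they were Sytl3, Gimap4 and Ctsw (r of 0.992 to 0.996), and for Tnfsf10 Phrf1, Gon4l and Ubxn2a (r of 0.918 to 0.933). Among the receptors, those for Fas were Fam111a, Gadd45b and Ccl3 (r of 0.969 to 0.972), for Tnfrsf1a Nfe2l2, Snx10 and Cebpb (r of 0.975 to 0.980), for Tnfrsf1b Wipf1, Cd53 and Prr13 (r of 0.991 to 0.994), and for Tnfrsf10b Hnrnpu, Frmd6 and Psat1 (r of 0.893 to 0.909).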

How the data were processed

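UMI counts per gene and cell were deposited by the authors as 4 10x matrices, one per treatment, written by Cell Ranger 3.1.0, per the file headers; the submitters' processing notes name mm10. The annotation release is not given in the sources used here. The members, gates and gene lists were chosen with earlier results of these data known. Cells needed 200 genes or more and mitochondrial UMIs below 20%. No doublet caller was run; an alternative drops cells that met several gates. UMIs were summed per gate and library and scaled to CPM, with exact 95% Poisson intervals, exact (Clopper-Pearson) binomial intervals for shares, and ratio intervals conditional on the summed UMIs of both libraries. Treatments were not tested against each other, as none had a second library, and no p-value is given; a model in which the effects of both agents add was not fitted. The ratio intervals were tested on simulated Poisson counts, which is the assumption they rest on. That check covers the computation only, since the simulated data held no differences between cells or tumours. Depth was 57332308 to 76070132 UMIs per library in the cells kept. For shares, cells were also thinned to 1000 UMIs. All 9 members were named in all 5 gates. Of each other list and comparison, up to 3 genes with the largest log2 ratio (pseudocount 5 CPM) in the T and in the macrophage gate were named, among those past 1.5-fold with 20 CPM and 20 UMIs, and so were the 3 genes most like each member, among genes reaching 50 CPM. The median log2 ratio of all genes was beyond 0.1 in the T gate (-0.10 for poly I:C), the NK gate (-0.10 to -0.17), the neutrophil gate (0.13 for poly I:C) and the tumour gate (-0.12 to -0.16). TMM scaling (edgeR 4.0.16, R 4.3.3) is among the 10 alternatives. Scripts used Python 3.11.15, numpy 2.4.6, scipy 1.17.1, pandas 2.3.3 and matplotlib 3.10.9.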

Additional observations from a re-analysis of the deposited data

Results flagged for a closer look

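For poly I:C over control, 3 members went past 1.5-fold in opposite directions in different gates. The difference between gates was not tested in any of them, since there was 1 library per treatment. Lta was lower in the T gate, at a ratio of 0.329, and higher in the NK gate, at 9.25; the NK value rests on 1 cell with 20 of 26 UMIs and is under the minimum for a call without it. Tnfsf10 was lower in the T gate (0.515) and the tumour gate (0.586) and higher in the NK gate (2.66), where the control and poly I:C counts were 15 and 28 UMIs and the ratio was 1.43 without deep cells. Tnfrsf1a was higher in the T gate (1.61) and lower in the neutrophil gate (0.490); the T-gate ratio was 1.09 (0.889 to 1.33) over cells that met no other gate.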

How the results depend on the processing

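No paired analysis was possible because each treatment has 1 library. Of 543 values recomputed, 451 stayed within the counting interval of the reported ratio and 90 moved outside it. A reversal was counted only for ratios past 1.5-fold, and there were 2. Tnfrsf1a for poly I:C was 0.856 of the control in the NK gate without cells of over 2 times the median depth. In the T gate it was 0.989 after thinning. Ratios inside 1.5-fold could cross 1 without being counted. Ltb for poly I:C in the macrophage gate did so, at 1.37 and, over cells of that gate alone, 0.952. The count of gene and gate pairs past 1.5-fold for poly I:C was 6, not 11, without deep cells, and also 6 as a mean over cells; the cause was not tested. Calls of poly I:C that ended in both were Lta in the T and NK gates, which fell under the 20 CPM minimum, and Tnfrsf1a in the T and NK gates and Fas in the neutrophil gate, which came inside 1.5-fold; Tnfsf10 in the NK gate ended without deep cells only, and Ltb in the neutrophil gate as a mean over cells only. Tnf in the neutrophil gate went past 1.5-fold in both. TMM scaling ended 4 calls. After thinning the count was 1 for phenformin and 5 for the combination, not 3 and 8, with fewer UMIs left to count. All 3 phenformin calls ended, and the 1 counted was new: Ltb in the neutrophil gate, at 0.576 of the control. The count for the combination also included a new pair, Ltb in the NK gate at 1.765 times the control. Without the low-value filter the counts were 11, 19 and 17 for phenformin, poly I:C and the combination, and at a fold of 2 they were 0, 5 and 3, since these settings change which pairs can count. In cells that met 1 gate only, 10 of the 68 ratios moved. Leaving out each member's top cell, also in the finer T gates, and the B cells of none of the 5 gates were chosen after seeing the data. Thinning leaves few UMIs of Tnf, Lta, Tnfsf10 and Tnfrsf10b, which limits what shares can show at that depth.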

Other observations

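Smaller gates on other lineages also held TRAIL and its receptor; a cell of these gates could also meet 1 of the 5. In cells with at least 3 UMIs of the endothelial genes Cdh5, Kdr and Egfl7 and no Ptprc, Tnfsf10 was at 98.4 (64.8 to 143), 139 (102 to 186), 81.2 (59.9 to 108) and 52.9 (25.4 to 97.3) CPM in the control, phenformin, poly I:C and combination libraries, from 27, 45, 48 and 10 UMIs. In the same cells Tnfrsf10b was at 72.9 (44.5 to 113), 31.0 (14.8 to 56.9), 20.3 (10.5 to 35.5) and 31.7 (11.7 to 69.1) CPM, from 20, 10, 12 and 6 UMIs, and Tnfrsf1a at 127 to 222 CPM. The gate held 15, 23, 51 and 19 cells in the 4 libraries.

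In cells gated on the fibroblast genes Col1a1, Col3a1 and Dcn without Ptprc, Tnfrsf1a was at 88.8 to 124 CPM, Tnfrsf10b at 7.29 to 15.6 CPM and Fas at 13.95 to 37.5 CPM, from 13 to 52 cells per library. Plasmacytoid dendritic cells (Siglech and Klk1) held 33.6 to 52.7 CPM of Tnfrsf1a and 3.59 to 14.7 CPM of Fas. Type 1 dendritic cells (Xcr1 and Clec9a) held 63.1 to 94.1 CPM of Tnfrsf1a and 4.11 to 12.7 CPM of Fas. In the B-cell gate Tnfrsf1b was at 47.5, 52.9, 56.7 and 88.7 CPM from 34, 52, 59 and 118 UMIs, 1.87 (1.27 to 2.82) times the control for the combination, beside macrophage markers of 1978, 2167, 4510 and 7844 CPM. Over the B-gate cells that met none of the 5 gates it was at 34.0, 30.4, 4.45 and 15.4 CPM from 19, 22, 3 and 10 UMIs, 0.453 (0.188 to 1.03) of the control for the combination, so the higher level was not seen in them.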
